A study of Mus musculus with 16 samples.

Results

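The messenger RNAs encoded on mouse chromosome 8 were examined in embryonic stem cells with and without Dnmt2, a cytosine methyltransferase of tRNA encoded by Trdmt1. An mRNA reference was included when its gene lies on chromosome 8 and its mean coverage was 1 or more. Coverage here is the number of reads over a cytosine, averaged over the listed cytosines of a reference and scaled between libraries. Of 812 chromosome 8 references listed in any library, 627 references from 568 genes met this minimum, and the other 185 lay under it. They stand among 11240 references that met it over the whole genome, out of 15330 listed. Of the 568 genes, 55 were represented by more than 1 reference, and references of the same gene share reads. The chromosome was chosen by the coverage of these same libraries in knockout against wild type, so the differences in coverage between genotypes below are a description, and none of them is offered as a test.

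Both groups were cultured embryonic stem cells of the J1 background, with 3 rRNA-depleted long RNA libraries per genotype, wild type and Dnmt2-/-. Per the labels, both were grown on embryonic fibroblast feeders, which were removed before harvest by letting them attach to dishes. The labels give neither the number of lines or clones nor whether replicates were separate cultures, so the spread between replicates may be technical. RNA was treated with bisulfite, which converts cytosine to uracil and leaves 5-methylcytosine unconverted, before sequencing.

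The amount of RNA made from a gene commonly follows the number of copies of its chromosome, and a gain or loss of a whole chromosome shifts many unrelated genes together by a similar ratio. Some genes depart from this because feedback on their transcription or on the stability of their mRNA sets their level; such genes are said to escape or to be compensated. Mouse embryonic stem cells in culture are known for recurrent gains of chromosome 8. DNA was not sequenced in these libraries, so copy number itself was not measured, and in bulk RNA a change in fewer cells and a change of RNA per cell cannot be told apart.

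The 568 genes were matched to a RefSeq table of promoter windows (GRCm38.p6), each holding 250 bases before and 50 after a transcription start. It held 487 windows of 405 of these genes. The 150 bases before the start are printed for 4 genes that mark the range of the data, 5′ to 3′ on the strand of the gene, with matches to 4 motifs, on either strand, in capitals. The motifs were the GC box GGGCGG, the CCAAT box, the TATA box TATAAA, and the E-box CACGTG, which reads the same on both strands. Rpl13 and Klf2 lay between the quartiles of the chromosome, Lamp1 was among the lowest in the knockout, and Zfp42 was the best-covered gene that was not lower.
Rpl13 (chr8:123102200-123102349, plus strand): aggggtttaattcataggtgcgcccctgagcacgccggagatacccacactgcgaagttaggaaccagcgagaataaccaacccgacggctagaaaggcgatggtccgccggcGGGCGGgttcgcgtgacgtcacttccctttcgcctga
Klf2 (chr8:72318912-72319061, plus strand): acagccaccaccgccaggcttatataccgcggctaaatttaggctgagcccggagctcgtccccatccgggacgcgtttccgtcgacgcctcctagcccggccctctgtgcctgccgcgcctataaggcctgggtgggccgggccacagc
Lamp1 (chr8:13159011-13159160, plus strand): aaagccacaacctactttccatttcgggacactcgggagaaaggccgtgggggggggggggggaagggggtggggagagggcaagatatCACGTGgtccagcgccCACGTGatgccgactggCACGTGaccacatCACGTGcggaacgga
Zfp42 (chr8:43307010-43307159, minus strand): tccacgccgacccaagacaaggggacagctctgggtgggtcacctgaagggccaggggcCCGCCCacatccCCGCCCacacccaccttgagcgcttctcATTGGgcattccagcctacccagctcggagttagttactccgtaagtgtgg

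In these stretches Lamp1 held 4 matches to CACGTG, Zfp42 held 2 to the reverse complement of GGGCGG and 1 to that of CCAAT, Rpl13 held 1 to GGGCGG, and Klf2 held none. Over the whole 300-base windows, GGGCGG on either strand was present in 68.1% of the 276 windows of genes lower in the knockout without overlap and in 77.8% of the 36 windows of genes not lower, against 35.7% of all 32851 windows of the table. CACGTG was present in 13.8%, 5.56% and 7.15%, CCAAT in 37.0%, 38.9% and 37.4%, and TATAAA in 6.88%, 13.9% and 13.6% of the same windows. Matches to different motifs overlapped in 4 of the 487 windows. A match is a description of the letters only. The table was not reduced to genes expressed in these cells, and the 36 windows of genes not lower belong to 26 genes.

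The summed coverage of the 6 libraries ranged from 37786723 (wild type replicate 3) to 143488903 (wild type replicate 2). Trdmt1, the targeted gene, lies on chromosome 2; 95, 127 and 48 of its 154 cytosines from position 200 of the transcript onward were listed in the wild type libraries and 0, 0 and 0 in the knockout libraries, a position chosen after the values were seen. Among markers encoded on other chromosomes, the 12 feeder fibroblast genes summed to a coverage of 137 to 280 in wild type and 74.9 to 89.4 in the knockout. All 8 of them that met the minimum had a negative log2 difference (knockout minus wild type). Only in Vim and Col1a2 did the genotypes not overlap. The difference was -0.07 in Thy1 and -0.20 in Fn1, and Dcn was listed in wild type replicate 3 alone. Most of the sum was Vim (85.2 to 196 against 38.0 to 41.0), and Postn, Lum and Pdgfrb were listed in no library. The 7 pluripotency genes summed to 1559 to 1888 in wild type and 1841 to 2514 in the knockout, which overlap. Most of that sum was Dppa5a (1041 to 1363 against 1401 to 1966). Of the 6 that met the minimum, 2, Pou5f1 and Sox2, were lower in the knockout. The feeder sum and Dppa5a differed between genotypes without overlap beside every coverage result below. The part of these markers in those results was not tested.

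Coverage of chromosome 8 transcripts was lower in the knockout as a group, and along the entire chromosome. The median log2 difference (knockout minus wild type, on log2 of coverage plus 0.5) was -0.51, with quartiles of -0.65 and -0.36. The 10613 transcripts of other chromosomes or without a match had a median of 0.05, with quartiles of -0.11 and 0.25. Relative to them, the knockout stood at 0.681 of the wild type level at the median of chromosome 8. Of the 627 transcripts, 572 (91.2%) had a difference under 0, against 44.8% of all 11240 transcripts and 42.1% of those off chromosome 8.

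In 345 of the 627 (55.0%), all 3 knockout libraries lay below all 3 wild type libraries. This pattern is called lower without overlap here, and it held for 5.85% of all transcripts and 2.94% of those off chromosome 8. Another 227 had a difference under 0 with overlapping libraries. The remaining 55 (8.77%) had a difference of 0 or more and are called not lower. The 3 knockout libraries lay above the 3 wild type libraries in 2 transcripts, Calb2 and Acta1, against 6.09% of all transcripts and 6.44% of those off chromosome 8. That count of 2 became 7 without wild type replicate 1, 7 without wild type replicate 2, 4 without wild type replicate 3, 5 without knockout replicate 2 and 6 without knockout replicate 3.

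In limma with Benjamini-Hochberg adjustment over all 11240 transcripts, 0 were lower and 0 higher (0% in each direction), on chromosome 8 or elsewhere. On chromosome 8, 324 transcripts were lower and 1 higher at an unadjusted p under 0.05, among 775 of all transcripts (6.90%), and the smallest adjusted p on the chromosome was 0.225.

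The shift was seen in each of the 6 libraries. The median deviation of chromosome 8 transcripts from their mean over the 6 libraries, less that of the other transcripts, was 0.24, 0.25 and 0.35 on the log2 scale in wild type replicates 1, 2 and 3. In knockout replicates 1, 2 and 3 it was -0.27, -0.32 and -0.24. The 812 references of chromosome 8 took 6.52%, 6.78% and 6.77% of the scaled coverage of all 15330 references in wild type against 4.60%, 4.55% and 4.76% in the knockout. Wild type and knockout libraries therefore did not overlap in either measure, and the libraries within a genotype were close to each other. The other 19 chromosomes had median differences of 0.02 to 0.10, with 1.44% to 3.68% of their transcripts lower without overlap. With scaling factors computed without chromosome 8, the median of all transcripts moved from 0.03 to 0.00 and that of chromosome 8 to -0.54.

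**Figure D1:**
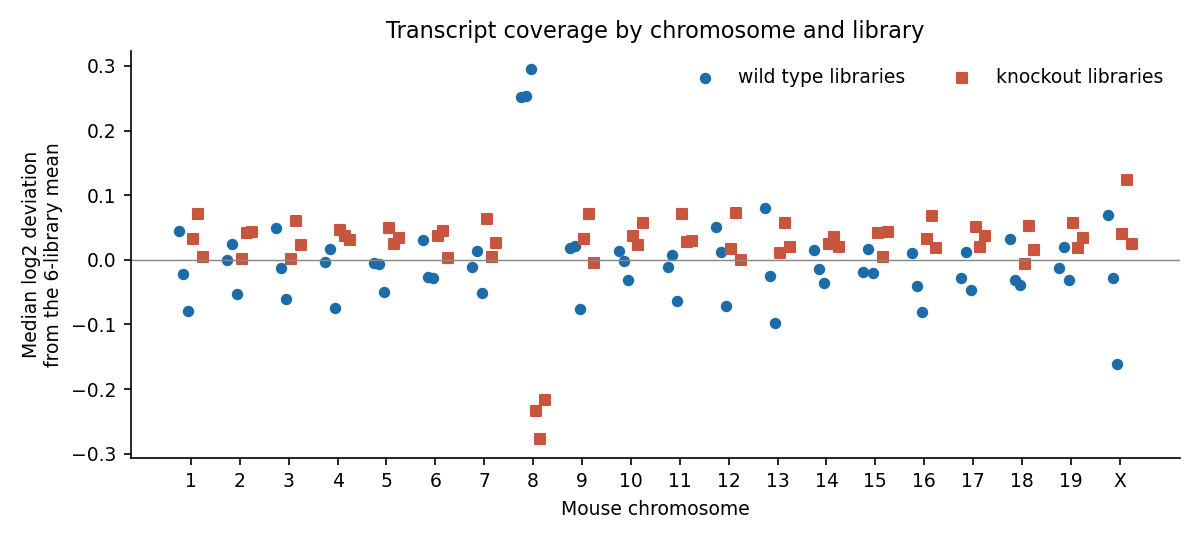
Median log2 deviation of transcript coverage from the mean over 6 libraries (vertical axis), for each mouse chromosome (horizontal axis); circles are wild type and squares knockout libraries, ordered by replicate number. On chromosome 8 the wild type libraries lie at 0.25 to 0.29 and the knockout libraries at -0.28 to -0.22, and chromosome 8 is the only one where they stand this far apart in that order.

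The lower coverage was not confined to a single segment of the chromosome. The 568 genes, each by its best-covered transcript, were put in chromosomal order and cut into 10 blocks of 56 or 57 genes. The median log2 difference of a block ran from -0.54 (Mtmr7 to Atp13a1) to -0.46 (Prkaca to Chd9). The first block, Insr to Slc25a15, stood at -0.54, and the last, which begins at Mvd, at -0.50. Each block held 26 to 38 genes lower without overlap and 3 to 7 genes not lower. The 43 genes that were not lower formed 41 separate runs, of which 39 were single genes and the longest held 2 neighbours (Tenm3 with Aga, and Hapln4 with Ncan). Between them, up to 46 genes in a row had a difference under 0.

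**Figure D2:**
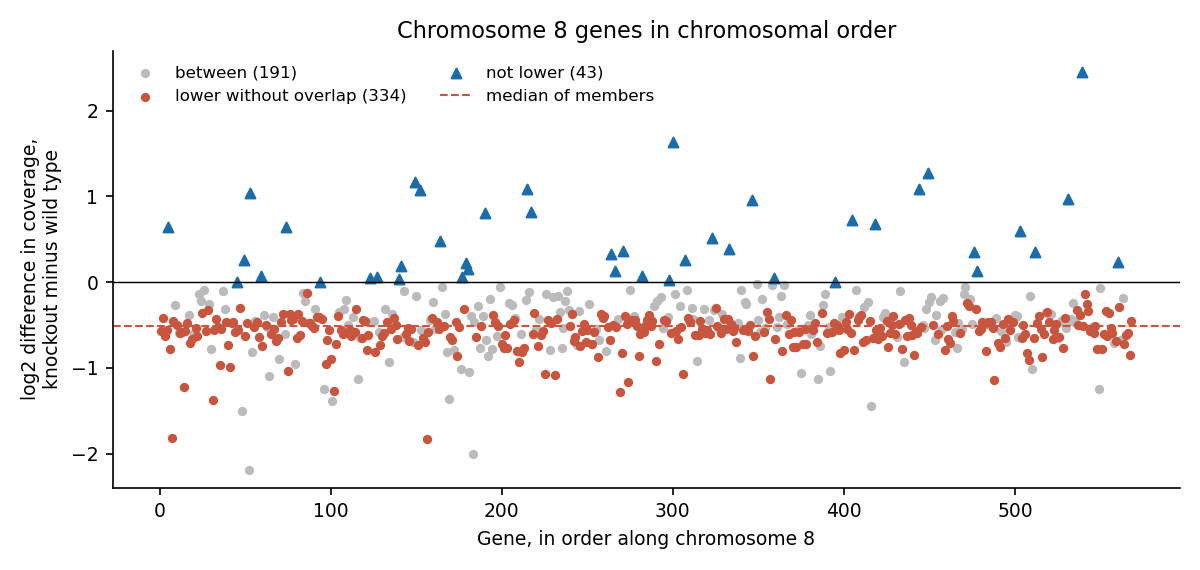
Log2 difference in coverage, knockout minus wild type (vertical axis), of 568 chromosome 8 genes in chromosomal order (horizontal axis, rank); red circles are lower without overlap, grey circles lower with overlap, blue triangles not lower, and the dashed line is the median of the members. The red and grey circles follow the dashed line from the first gene to the last, and the 43 triangles are scattered.

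The difference was also similar along transcripts and over the range of coverage. For 382 transcripts divided at their middle listed cytosine, the median log2 difference was -0.52 over the 5′ portion and -0.51 over the 3′ portion; 360 were lower in both portions and 7 higher in both. Median log2 differences were -0.48, -0.48, -0.52, -0.50 and -0.56 at mean coverages of 1 to 2, 2 to 5, 5 to 20, 20 to 100, and 100 or more. Over the members, Spearman's rho of the difference was -0.057 with mean coverage, 0.042 with gene order and -0.039 with the number of listed cytosines, given as descriptions over 627 transcripts that share the same 6 libraries.

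The share that was not lower did change with coverage. It was 25 of 94 transcripts at a mean coverage of 1 to 2, 19 of 149 at 2 to 5, 9 of 239 at 5 to 20, 1 of 128 at 20 to 100, and 1 of 17 at 100 or more. The median standard error of a difference was 0.66 in the lowest of these classes and 0.15 to 0.17 in the highest 3. At a mean coverage of 20 or more, 124 of 145 members lay within 0.25 of the chromosome's median on the log2 scale. The SD of the differences there was 0.25, and it was 0.23 among the 2031 transcripts off chromosome 8, of which 16 were as low as the chromosome 8 median. The poorest-covered members were Mfhas1 (mean coverage 1.03) and Gmip (1.01), and the nearest references left out were Rasd2 (0.999) and Atp11a (0.999).

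**Figure D3:**
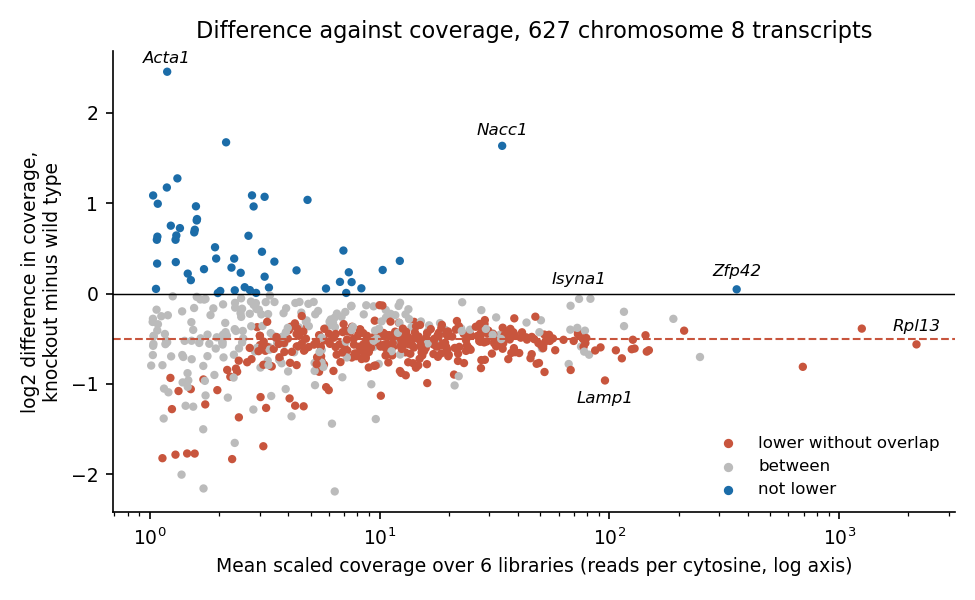
Log2 difference in coverage, knockout minus wild type (vertical axis), against mean scaled coverage (horizontal axis, log scale) for 627 chromosome 8 transcripts; colours give the status and the dashed line is their median. The spread narrows from left to right, and at a coverage of 20 or more only Zfp42 and Nacc1 lie above 0.

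Among the best-covered members was a gene of the ribosome. Rpl13, which encodes a protein of the large ribosomal subunit, had a coverage of 2752, 2262 and 2760 in the wild type libraries and 1810, 1701 and 1730 in the knockout libraries (log2 difference -0.56, SE 0.22). The knockout libraries lay below the wild type libraries without overlap, and they were closer to each other than the wild type ones. Ribosomal protein genes have many near-identical processed copies in the genome, and how reads shared with these were placed is not given in the sources used here.

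Other well-covered genes had the same order of libraries. Eif4ebp1, an inhibitor of cap-dependent translation, had 262, 216 and 245 in wild type against 208, 180 and 158 in the knockout (log2 difference -0.41, SE 0.15). Slc25a4, the ADP/ATP carrier of the inner mitochondrial membrane, had 171, 149 and 222 against 107, 102 and 140 (-0.63, SE 0.19). Klf2, a transcription factor of the naive pluripotency network, had 150, 198 and 184 against 126, 113 and 101 (-0.64, SE 0.15). None of the 3 overlapped between genotypes, and the gap was narrowest in Eif4ebp1 and Slc25a4. Prdx2, a peroxidase, had 156, 144 and 202 against 120, 118 and 122 (-0.46, SE 0.15), and Ddx39a, an RNA helicase of mRNA export, had 146, 137 and 185 against 99.0, 97.0 and 108 (-0.61, SE 0.15).

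Among members lower without overlap at a coverage of 5 or more, the most negative log2 differences of a gene lay near -1; members whose libraries overlapped reached lower values and are not ranked here. Lamp1, a major membrane protein of the lysosome, had a coverage of 128, 110 and 142 in wild type against 62.9, 61.4 and 69.2 in the knockout (log2 difference -0.96, SE 0.13). Upf3a, a paralogue of a factor of nonsense-mediated mRNA decay, had 20.4, 22.1 and 22.2 against 9.93, 10.2 and 11.8 (-0.99, SE 0.13). In both, the gap between genotypes was wider than the spread within either genotype. Slc7a5, a subunit of a transporter of large neutral amino acids, had 15.2, 18.1 and 17.9 against 9.97, 8.11 and 8.60 (-0.90, SE 0.14). Nsd3, a histone H3 lysine methyltransferase, had 6.88, 8.82 and 8.39 against 3.65, 3.19 and 4.14 (-1.04, SE 0.18). In Arl2bp, whose product binds the GTPase Arl2, the values were 11.0, 10.7 and 20.6 against 5.25, 4.39 and 8.71 (-1.13, SE 0.32), and in Syce2, a protein of the meiotic synaptonemal complex, 5.57, 8.02 and 11.4 against 2.78, 3.06 and 5.19 (-1.07, SE 0.31). In these last 2 genes replicate 3 was the highest library of each genotype and made the spread wider.

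The 95% interval of a difference held the chromosome's median in 600 of the 627 members. It lay below the median in 9 (1.44%) and above it in 18 (2.87%). Off chromosome 8, intervals lay below those transcripts' own median in 1.7% and above it in 2.27%. The shares on chromosome 8 were close to these, so being named below does not show that a gene departs from the chromosome's median. The genes are named here after their values were seen. Those below it were Lamp1, Upf3a, Slc7a5, Nsd3, Smarca5, Gsr, Sox1 and 1 of the isoforms each of Ing1 and Rbpms. Smarca5, the ATPase of ISWI chromatin remodelling complexes, stood at 37.1, 34.3 and 34.7 in wild type against 17.7, 21.9 and 19.8 in the knockout (log2 difference -0.83, SE 0.12). Gsr, which reduces glutathione, stood at 26.0, 25.2 and 31.6 against 13.7, 15.0 and 14.9 (-0.90, SE 0.13).

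Those above it were Zfp42, Isyna1, Bst2, Sall1, Zfp961, D230025D16Rik, Kbtbd11, Abcb10, Thap1, Cdyl2, Kcnk1, Ints10, Gcdh, Mvd, Calb2, Acta1 and 1 isoform each of Myo9b and Ap1g1. Isyna1, the enzyme that makes inositol phosphate from glucose 6-phosphate, had a coverage of 72.9, 60.8 and 93.3 in wild type against 72.9, 63.5 and 78.9 in the knockout (log2 difference -0.06, SE 0.18). Bst2, an interferon-induced membrane protein that tethers virus particles, had 72.3, 63.4 and 77.0 against 61.7, 59.7 and 72.2 (-0.14, SE 0.13). Sall1, a zinc finger transcription factor, had 22.2, 23.1 and 25.6 against 22.6, 23.4 and 20.2 (-0.10, SE 0.12). The genotypes overlapped in all 3. Thap1 and Abcb10 lay above the chromosome's median and were still lower without overlap, at -0.13 each (SE 0.13 in each).

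Of the 55 transcripts that were not lower, the best covered was Zfp42, also called Rex1, a marker of the naive pluripotent state. Its coverage was 408, 300 and 353 in the wild type libraries and 366, 361 and 360 in the knockout libraries, a log2 difference of 0.05 (SE 0.16, 95% interval -0.32 to 0.41). The knockout values lay inside the wild type range, and leaving out a library moved the difference between -0.07 and 0.15. Beside it, pluripotency genes of other chromosomes differed in direction between genotypes, with log2 differences of 0.59 for Dppa5a, 0.90 for Nanog and 0.21 for Tdgf1, and -0.24 for Pou5f1 and -0.09 for Sox2. Their part in the value of Zfp42 was not tested.

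The second best covered, Nacc1, a BTB-domain transcriptional regulator of stem cells, owed its place to 1 library. It had no listed cytosine in wild type replicate 2, and 45.1 and 58.3 in the other two wild type libraries, against 35.8, 32 and 33.5 in the knockout. Without wild type replicate 2 its log2 difference was -0.60 in place of 1.63 (SE 1.60). Gab1, an adaptor of growth factor receptors, had 13.7, 14.5 and 4.93 against 16.4, 15.4 and 8.59 (log2 difference 0.36, SE 0.41). Mau2, a loader of cohesin, had 13.7, 11.4 and 2.22 against 8.08, 7.61 and 6.93 (0.06, SE 0.56), and Otud4, a deubiquitinase, 7.92, 9.65 and 2.48 against 9.90, 5.49 and 4.84 (0.13, SE 0.47). In Gab1, Mau2 and Otud4 the low value of wild type replicate 3, the shallowest library, widened the error, and each of them turned negative in at least 1 of the 6 fits that left out a library.

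Of the 11 members that were not lower at a mean coverage of 5 or more, 2 kept the direction in each of the 6 fits. Kbtbd11, a kelch-repeat protein, had a coverage of 9.09, 10.1 and 8.76 in wild type against 12.9, 11.3 and 9.71 in the knockout (log2 difference 0.26, SE 0.15; 0.16 to 0.35 over the 6 fits). Ints10, a subunit of the Integrator complex, had 5.14, 3.88 and 8.29 against 7.46, 5.82 and 11.1 (0.48, SE 0.31; 0.23 to 0.75). In both, the genotypes overlapped. Kcnk1, a potassium channel, had 6.67, 5.22 and 7.94 against 7.12, 5.78 and 11.3 (0.24, SE 0.26), Cdyl2, a chromodomain protein, 7.80, 8.50 and 5.42 against 8.34, 8.41 and 6.80 (0.13, SE 0.20), and Tdrp 7.99, 8.12 and 5.20 against 7.94, 8.65 and 4.98 (0.01, SE 0.26). These 3 overlapped between genotypes and turned negative in at least 1 of the 6 fits.

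Most of the 55 were at low coverage or incompletely listed. At a mean coverage of 5 or more there were 384 members, and these 11 were the only ones not lower. In 27 of the 55, at least 1 library listed no cytosine, and this was so for 65 of all 627 members. In 23 of the 55 the difference stayed at 0 or more whichever library was left out. The 55 also include less-covered references of genes whose best-covered reference was lower, as in Tnpo2 (log2 difference -0.62) and Ash2l (-0.66). Such genes are not among the 43 genes that were not lower. Acta1, the skeletal muscle actin, was listed in no wild type library and had a coverage of 3.50, 1.35 and 2.28 in the knockout. Calb2, a calcium-binding protein known from neurons, had 0.0702, 0.704 and 0.936 in wild type against 1.78, 1.11 and 3.30 in the knockout.

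**Figure D4:**
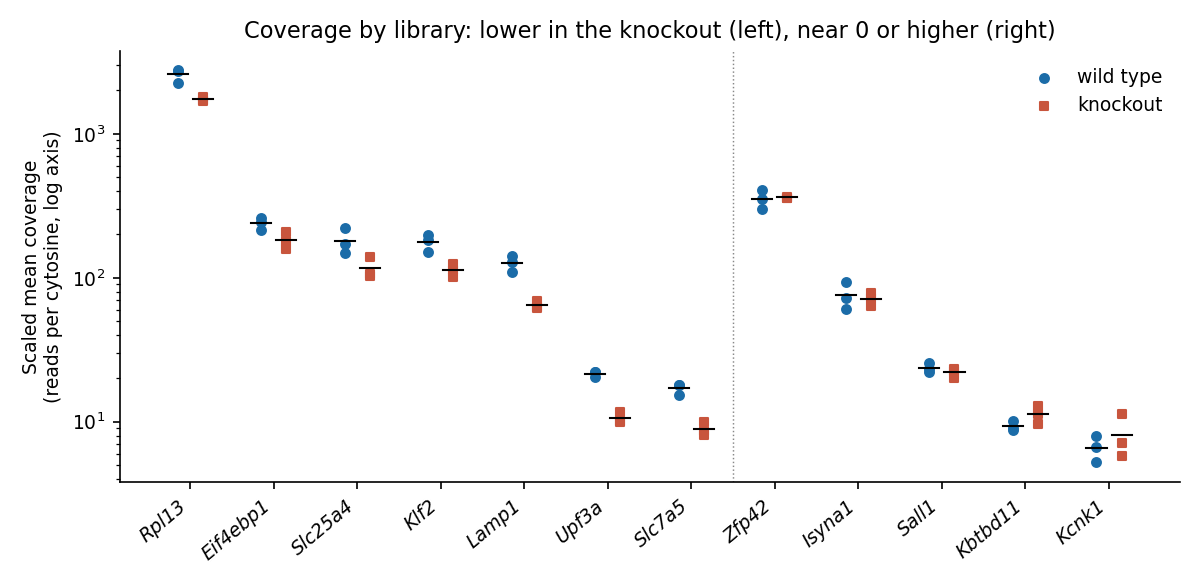
Scaled mean coverage (vertical axis, reads per cytosine, log scale) of 12 chromosome 8 genes in wild type (circles) and knockout (squares) libraries; a point is a library and a bar the mean of 3. Left of the dotted line the genotypes do not overlap, as in Lamp1 (110 to 142 against 61.4 to 69.2); right of it they do, as in Zfp42 (300 to 408 against 360 to 366).

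The genes were then read by function, from 10 lists chosen with earlier results of these data known. Beside each count stands the same over all 568 genes: 334 (58.8%) lower without overlap and 43 not lower, with a median log2 difference of -0.51. For translation and tRNA, 21 of 26 genes at the minimum were lower without overlap and 1 was not lower, at a median of -0.54; Rpl13 and Eif4ebp1 are among its best-covered genes, and the gene not lower was Upf1, unlisted in 2 libraries. For mitochondria the counts were 15 and 1 of 21 (median -0.52). Its best-covered genes were Slc25a4, Tomm20, a receptor of the outer-membrane import machinery, with 131, 114 and 178 in wild type against 70.9, 78.6 and 107 in the knockout, and Gcsh, the lipoyl carrier of glycine cleavage, with 93.5, 72.2 and 115 against 63.5, 63.6 and 68.3. Neither gene overlapped between genotypes.

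For DNA replication and repair, 17 of 24 genes were lower without overlap and 1 was not lower (median -0.55). Mcm5, a subunit of the replicative helicase, had 71.4, 77.0 and 154 in wild type against 53.3, 41.7 and 92.1 in the knockout, so that knockout replicate 3 overlapped with wild type. Xab2, a factor of splicing and transcription-coupled repair, had 61.1, 50.4 and 69.9 against 43.9, 40.6 and 46.5, and Gins2, a subunit of the GINS complex, 48.8, 42.5 and 43.2 against 31.9, 35.7 and 29.8; both were lower without overlap. For cell division the counts were 13 and 1 of 20 (median -0.50). E2f4, a repressor of cell cycle genes, had 51.3, 49.0 and 60.5 against 40.0, 36.1 and 38.4, Chmp1a, an ESCRT-III subunit, 48.0, 44.9 and 59.3 against 36.1, 31.8 and 40.2, and Cenpt, a kinetochore protein, 32.6, 31.6 and 37.8 against 25.7, 23.5 and 27.0. All 3 were lower without overlap.

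For chromatin and transcription, 19 of 28 genes were lower without overlap and 1, Nacc1, was not lower (median -0.51). The 3 best covered overlapped between genotypes. Hmgb2, a high-mobility-group protein, had 397, 310 and 217 in wild type against 179, 237 and 146 in the knockout (log2 difference -0.70, SE 0.26). Polr2c, a subunit of RNA polymerase II, had 107, 70.3 and 91.9 against 74.4, 68.9 and 57.0 (-0.41, SE 0.18), and Junb, an AP-1 factor, 56.3, 46.5 and 64.1 against 48.5, 40.0 and 46.4 (-0.30, SE 0.15). For RNA processing the counts were 17 and 1 of 26 (median -0.53), and the gene not lower was Ints10. With Ddx39a, its best-covered genes were Prmt7, an arginine methyltransferase, with 132, 100 and 159 against 81.7, 74.0 and 93.3, and Nudt21, a subunit of the 3′ end cleavage factor, with 110, 103 and 103 against 72.5, 75.3 and 56.8. Both were lower without overlap.

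Pluripotency and signalling held 4 of the 43 genes that were not lower: Zfp42, Gab1, Esrp2 and Fgfr1. Of its 16 genes 6 were lower without overlap, at a median log2 difference of -0.46. Esrp2, a splicing regulator of epithelial cells, and Fgfr1, a receptor of fibroblast growth factors, had mean coverages of 1.56 and 1.30. Cdh1, which encodes E-cadherin, had 34.4, 32.8 and 41.1 in wild type against 23.1, 28.0 and 27.7 in the knockout and was lower without overlap, as was Klf2.

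For adhesion and matrix, 7 of 14 genes were lower without overlap and 0 not lower (median log2 difference -0.49). Itgb1, the integrin beta-1 chain, had 105, 70.0 and 87.6 in wild type against 45.1, 53.6 and 45.3 in the knockout (-0.85, SE 0.17), without overlap. Tpm4, a tropomyosin, had 47.1, 34.95 and 64.4 against 33.3, 34.1 and 47.5, and Fat1, a protocadherin, 26.3, 30.9 and 51.4 against 22.2, 20.9 and 34.0; both overlapped and were highest in replicate 3 of each genotype. Fibroblasts express genes of this list, and the summed coverage of feeder markers of other chromosomes was lower in the knockout, as given above. The part of these markers in the values of this list was not tested. For protein folding, turnover and traffic the counts were 19 and 0 of 29 (median -0.50). Calr, a chaperone of the endoplasmic reticulum, had 224, 185 and 214 against 192, 184 and 140 and overlapped, and Gabarapl2, of the autophagosome, had 109, 82.1 and 60.3 against 99.1, 95.6 and 50.2, a log2 difference of -0.06 (SE 0.30).

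For metabolism and stress, 9 of 19 genes were lower without overlap and 1, Mvd, an enzyme of the mevalonate pathway, was not lower (median -0.45). With Prdx2, the best covered were Aprt, which salvages adenine, with 125, 106 and 162 in wild type against 110, 87.4 and 105 in the knockout, and Mt1, a metallothionein, with 91.3, 108 and 173 against 94.7, 81.2 and 146. Both overlapped between genotypes. The medians of the 10 lists thus ran from -0.55 to -0.45, and the 345 genes on no list stood at -0.51 with 191 lower without overlap and 32 not lower.

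**Figure D5:**
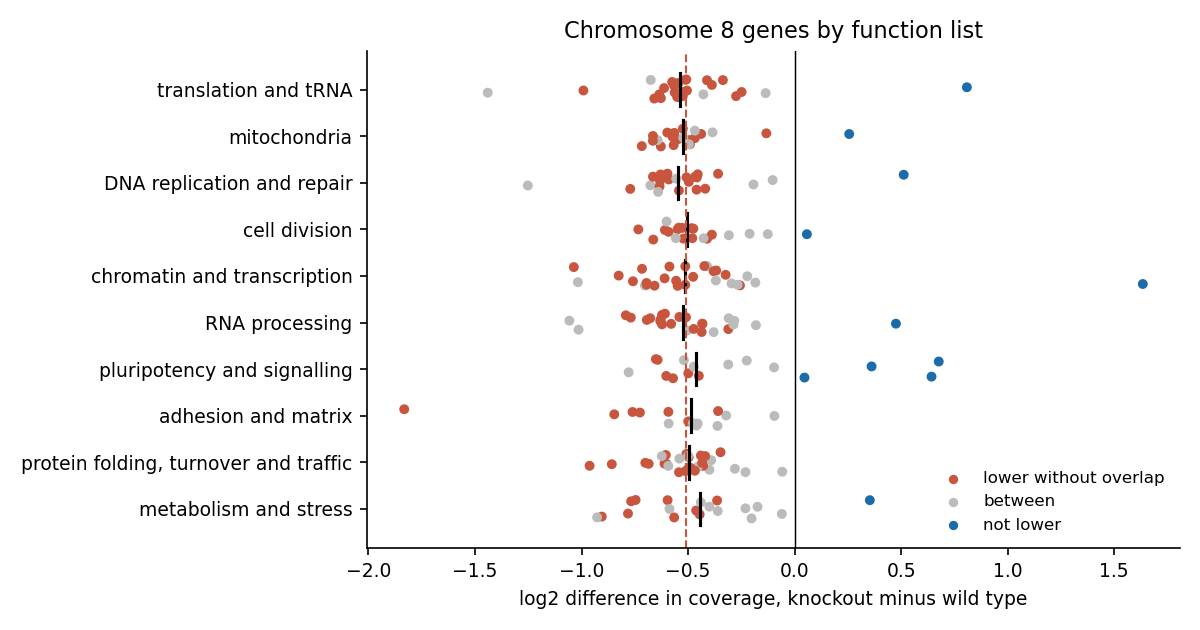
Log2 difference in coverage, knockout minus wild type (horizontal axis), of chromosome 8 genes by function list (vertical axis); a point is a gene coloured by status, black bars are list medians and the dashed line is the median of all members. The medians lie between -0.55 and -0.45, and 4 of the 16 genes of pluripotency and signalling lie above 0.

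Cytosine non-conversion, the percentage of reads left unconverted at a site, did not enter the choice of these transcripts and was tested. On chromosome 8, 664 cytosines of 219 transcripts reached 10 reads in each of the 6 libraries and averaged at least 5% non-conversion, among 8186 in all. By edgeR's quasi-likelihood F test, Benjamini-Hochberg adjusted, 0 of the 664 and 0 of the 8186 (0%) differed between genotypes. An unadjusted p under 0.05 was found for 15 and 201, under 5% of the cytosines tested in each set. The 0 calls do not show that differences were absent. DESeq2 called 0, and Fisher's exact test on reads summed over libraries called 2 on chromosome 8. The median difference was -0.06 percentage points on chromosome 8 and -0.31 over all cytosines tested, and 336 of the 664 were lower and 328 higher in the knockout.

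Within each genotype, cytosines were called methylated where the reads exceeded a library's background of 1.42% to 1.77% and non-conversion was 10% or more in every library. The call is one of non-conversion over background. Whether such reads were methylated or left unconverted for another reason was not tested. On chromosome 8 this gave 12 of 62939 cytosines for wild type libraries and 28 of 82779 for knockout libraries, against 0.0212% and 0.0283% of the cytosines of all transcripts. The count of 12 became 24 without wild type replicate 2 and 35 without wild type replicate 3, and that of 28 became 44 without knockout replicate 3. Leaving out a library also let more cytosines be tested. Of the 33 cytosines called in either genotype, in 24 transcripts, 7 were called in both, and 15 were called in the knockout and not tested in wild type.

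Position 567 of Eif4ebp1, at 121 reads or more, stood at 37.7%, 36.3% and 29.8% in wild type against 49.3%, 42.0% and 46.4% in the knockout (34.6% ± 4.23 and 45.9% ± 3.67; SD, n = 3). The libraries did not overlap, the edgeR adjusted p was 0.999, and Fisher's exact test on summed reads gave an adjusted p of 0.018. The share of all tested cytosines without overlap is not given here, so the order of these libraries is a description only. Position 468 of Chmp1a, at 63 reads or more, stood at 28.9% ± 9.93 and 38.2% ± 4.55, and position 1149 of Cotl1, an actin-binding protein, at 26.9% ± 3.11 and 38.6% ± 10.3 (SD, n = 3). The edgeR adjusted p was 0.999 for each of these 3 cytosines. Position 2121 of Erlin2 (44.3% ± 12.2 and 35.1% ± 17.8) and position 896 of Vac14 (33.8% ± 17.3 and 39.0% ± 19.2) had fewer than 10 reads in a wild type library and were not tested.

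Named after their values were seen, position 1478 of Got2, the mitochondrial aspartate aminotransferase, was the other cytosine called by Fisher's test. It stood at 10.0%, 29.3% and 33.3% in wild type against 57.1%, 65.2% and 50% in the knockout, at 14 to 41 reads (edgeR adjusted p = 0.999; Fisher adjusted p = 0.0433). In Junb, 7 neighbouring positions from 1403 to 1411 were called in the knockout at 32.1% to 46.7%, with 10 to 18 reads. At the same positions wild type replicate 1 stood at 21.4% to 38.5% with 12 to 14 reads, replicate 2 at 0% to 10.5% with 19 reads and replicate 3 at 0% to 14.3% with 7 or 8 reads, so the wild type libraries differed among themselves. The positions were not tested between genotypes, because of the low coverage of wild type replicate 3.

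Chromosome 8 also holds tRNA genes, which the choice of transcripts did not use. In the small RNA fraction, 3 of 182 tRNA references carried a chromosome 8 location (mm9). tRNA-Gly-GCC (chromosome 8, 113586461 to 113586531, plus strand) had a scaled coverage of 915, 887 and 854 in wild type against 749, 713 and 591 in the knockout (885 ± 30.6 and 684 ± 82.6; SD, n = 3), a log2 difference of -0.38 (limma adjusted p = 0.744). Its libraries did not overlap, and it was the best covered of the 3 chromosome 8 tRNA genes, with 22 listed cytosines. The share of all tRNA references without overlap is not given here, so this is a description only. Dnmt2 itself acts on tRNA, and the part of its loss in these tRNA values was not tested. tRNA-Leu-CAG (39276255 to 39276337) had 52.6, 54.5 and 171 against 60.6, 66.7 and 118, and tRNA-Lys-TTT (82433177 to 82433249) had 26.4, 14.6 and 58.2 against 22.6, 30.0 and 23.5; both overlapped (limma adjusted p = 0.992 and 0.987). In limma, 0 of 174 tRNA references (0%) differed between genotypes and 10 had an unadjusted p under 0.05. The 3 genes took 0.0658% ± 0.00841 of tRNA coverage in wild type and 0.0516% ± 0.00929 in the knockout libraries (SD, n = 3; exact permutation test, two-sided p = 0.3, where 3 against 3 libraries cannot go below 0.1). The difference, -0.0143 percentage points, was -0.00891 without knockout replicate 3 and -0.0242 with the best-covered tRNA reference left out. Reads of near-identical tRNA copies can be placed on any of them, so a value of a single copy is uncertain.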

How the data were processed

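Per the file headers, each deposited file gives for a cytosine of a reference RNA its coverage, a count of reads that was not normalized, and its unconversion ratio, a fraction from 0 to 1. The submitters' processing notes name BSMAP and build mm9; the version is not given in the sources used here, nor is any filter. No listed coverage was under 3, and an unlisted cytosine was taken as 0. Non-converted read counts were recovered as coverage times ratio (whole within 0.01). The 4 undepleted long libraries were not used here.

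The members, lists and tests were chosen with earlier results of these data known. RefSeq gene names and order (GRCm38.p6) matched 15235 of 15330 mRNAs; no coordinates were taken from them except those of the printed promoters. Transcript coverage, the mean over cytosines listed in any library, was scaled with TMM factors, filtered at a mean of 1, and fitted with limma 3.58.1 (trend) on log2 of coverage plus 0.5, a scale that understates changes at low coverage. Non-conversion was tested with edgeR 4.0.16 in R 4.3.3, with library terms and a genotype by conversion interaction, at an adjusted p under 0.05; DESeq2 1.42.0 was an alternative. Methylation calls combined 1-sided exact binomial tests over libraries by Fisher's method, at 10 reads or more (SciPy 1.17.1). Intervals cover the spread between libraries; reads carried no molecular identifiers and are not independent. The main limma fit of coverage, the main edgeR test and the methylation calls were run on simulated data with large changes. The simulated cytosine counts held no added spread between libraries. Those runs do not show whether differences of the size seen here would be called.

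Named genes, by their best-covered transcript, were the 8 best covered and 6 lowest (coverage of 5 or more) among those lower without overlap, the 8 best covered and 6 highest among those not lower, the 3 best covered of each list, and the 6 called cytosines highest in wild type. A few items named by this rule are not reported here. Alternatives were other pseudocounts, minimums and scalings, leaving out libraries, and a replicate block.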

Additional observations from a re-analysis of the deposited data

How the results depend on the processing

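The median log2 difference of chromosome 8, -0.51, was -0.54 with a pseudocount of 0.1, -0.43 with a pseudocount of 2, -0.54 with scaling factors computed without chromosome 8 and -0.43 over cytosines listed in every library; leaving out 1 library gave -0.54 to -0.49. The 345 transcripts lower without overlap became 276 to 353 under other pseudocounts, minimums, scalings and listings, and 362 to 430 without 1 library. They became 506 without both replicate 3 libraries, an alternative chosen after seeing the data. The count of 276 was at a minimum coverage of 5, where 384 members remained in place of 627. The 2 higher without overlap became 0 at a minimum coverage of 5, 4 with no minimum, 1 over cytosines listed in every library, 1 without transcripts unlisted in a library, 14 without both replicate 3 libraries, and 3 to 7 without 1 library. Fewer libraries make both counts easier to reach by construction. limma called 0 on chromosome 8 under every alternative run.

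Cytosines called methylated fell from 12 to 5 in wild type and from 28 to 8 in the knockout at a coverage of 20 or more, and to 3 and 14 at a non-conversion of 20% or more. Without 1 library they were 16 to 35 in wild type and 36 to 44 in the knockout. The higher coverage minimum left fewer cytosines to test and leaving out a library left more, so these counts are not rates. Cytosines differing between genotypes were 0 under all alternatives but Fisher's exact test on summed reads (2), which ignores the spread between libraries. Of 686 alternative values of 43 named transcripts, 683 moved by no more than 1 SD. Among those that moved was Cenpt, at -0.29 over cytosines listed in every library. A value counted as within 1 SD can still change sign, as several of the named genes not lower did. Nacc1 went from 1.63 to -0.60 without wild type replicate 2, and Mau2 from 0.06 to -0.71 without wild type replicate 3.

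Same-numbered libraries had correlations of 0.135, 0.0361 and 0.295 in their deviations from group means, so the numbers were not taken as pairs. With the replicate number as a block, limma called 0 lower and 0 higher on chromosome 8, and edgeR 0 cytosines and limma 0 tRNA references. Low coverage limits the genes under 5 most.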
